A study of Drosophila melanogaster with 6 samples.

Results

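The genes described here are 10 transcription factors that direct the fate of hemocytes, the blood cells of Drosophila melanogaster: srp, ush, gcm, gcm2, lz, kn, Antp, peb, jumu and zfh1. They were taken by gene symbol from the array annotation, keeping probe sets that name a single gene, which gave 13 probe sets among the 18769 that were tested. Of the 11982 genes measured, these 10 make up the set, and the brightest probe set over the 6 arrays stands for each gene. All 10 had a probe set, and none was removed by a filter on low values in the reported fit.

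Larval hemocytes fall into a few kinds. Plasmatocytes engulf debris and microbes, crystal cells carry the enzymes of melanization, and lamellocytes are flat cells that wrap objects too large to be engulfed. The GATA factor Serpent (srp) acts at the base of all these lineages, and the FOG-type cofactor U-shaped (ush) binds GATA factors and holds back both crystal cell and lamellocyte formation. Glial cells missing (gcm) and its relative gcm2 promote the plasmatocyte fate in the embryo, and the RUNX protein Lozenge (lz) drives the crystal cell fate together with Notch signalling and with Hindsight (peb). In the lymph gland, the larval blood-forming organ, the EBF-type factor Collier (kn) and the Hox protein Antennapedia (Antp) mark the signalling niche, and kn is also needed for lamellocytes to form after wasp parasitism.

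The study compared circulating hemocytes of wandering larvae of 2 genotypes. The 3 control samples carried hml-Gal4 and UAS-2xEGFP, and the 3 Idh-R195H samples carried hml-Gal4, UAS-2xEGFP and UAS-Idh-R195H, so driver and green fluorescent reporter were shared and the mutant isocitrate dehydrogenase was the difference. Each sample pooled the hemocytes of 400 larvae and filled 1 array. Eggs were laid over 24 hours, and the larvae were kept at 29 °C until their harvest on day 7. The hml-Gal4 driver rests on the regulatory DNA of Hemolectin, a gene of differentiated hemocytes, so cells in which that driver is silent would not make the transgene product. Values are probe set intensities on a linear scale, and fold changes are Idh-R195H minus control on the scale log2(intensity + 1). The precision is limited by the number of arrays.

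Marker genes of hemocytes and of other tissues both gave signal on the arrays, and the source of the latter was not tested. Hemolectin (Hml), named because the driver derives from it, was at 16444 ± 5011 in control against 16127 ± 1401 with Idh-R195H (SD, n = 3 per genotype). Idh, the gene whose mutant form the transgene carries, was at 4035 ± 245 and 9967 ± 941. Whether its probe set read the transgene was not tested. The 6 salivary gland glue genes summed to an intensity of 23143 on control replicate 1, to 220111 and 229873 on the other control arrays, and to between 991 and 4914 on the Idh-R195H arrays. The 3 fat body genes measured summed to between 39406 and 108887 in control and between 5534 and 50017 in Idh-R195H hemocytes, and the 5 midgut genes to between 1607 and 58437 and between 270.0 and 1194. The ratio of 3′ to 5′ signal for Act5C, which rises as RNA is degraded, was 3.72, 4.45 and 6.17 on control replicates 1, 2 and 3 and between 2.13 and 2.39 on the Idh-R195H arrays. Because each sample is a pool of cells, fewer cells of a type and less RNA per cell cannot be told apart.

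Among the 10 factors, kn alone passed the test and was higher in Idh-R195H hemocytes, with mean intensities of 40.6 in control and 89.1 with Idh-R195H. The control signal of kn was in the dim range, where it was not shown to exceed background, so the 2.20-fold ratio of these means describes the probe set and not the transcript. The factors zfh1 and jumu stood higher on every Idh-R195H array than on any control array, by 3.51-fold and 2.58-fold in mean intensity, but missed the threshold (adjusted p = 0.0787 and 0.148 in limma). The 7 others overlapped between the genotypes, srp with nearly equal means. No factor passed in the lower direction in the reported fit. With array weights, an estimate that did not converge, Antp did, at -1.69 (adjusted p = 0.0116 in limma). That setting called 7489 of all 18769 probe sets, against 584 as reported. It weighted control replicate 2 at 10.8 and control replicates 1 and 3 at 0.18 and 0.25. A call means a Benjamini-Hochberg adjusted p below 0.05 over all 18769 probe sets in limma. By this rule 3.77% of all genes were called with 1 probe set each, and 3.11% of all probe sets, so 1 call among 10 genes is a count too small to set the group apart. The 3 factors whose arrays did not overlap were all higher in Idh-R195H hemocytes, where 14.9% of all genes were higher without overlap and 31.6% did not overlap in either direction. Over the 10 factors, with 1 probe set each, the median log2 fold change was 0.26, against -0.11 over all probe sets. These sets are unlike: without dim probe sets the medians were 0.26 over the 6 factors left and 5.7e-05 over all probe sets left.

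**Figure D1:**
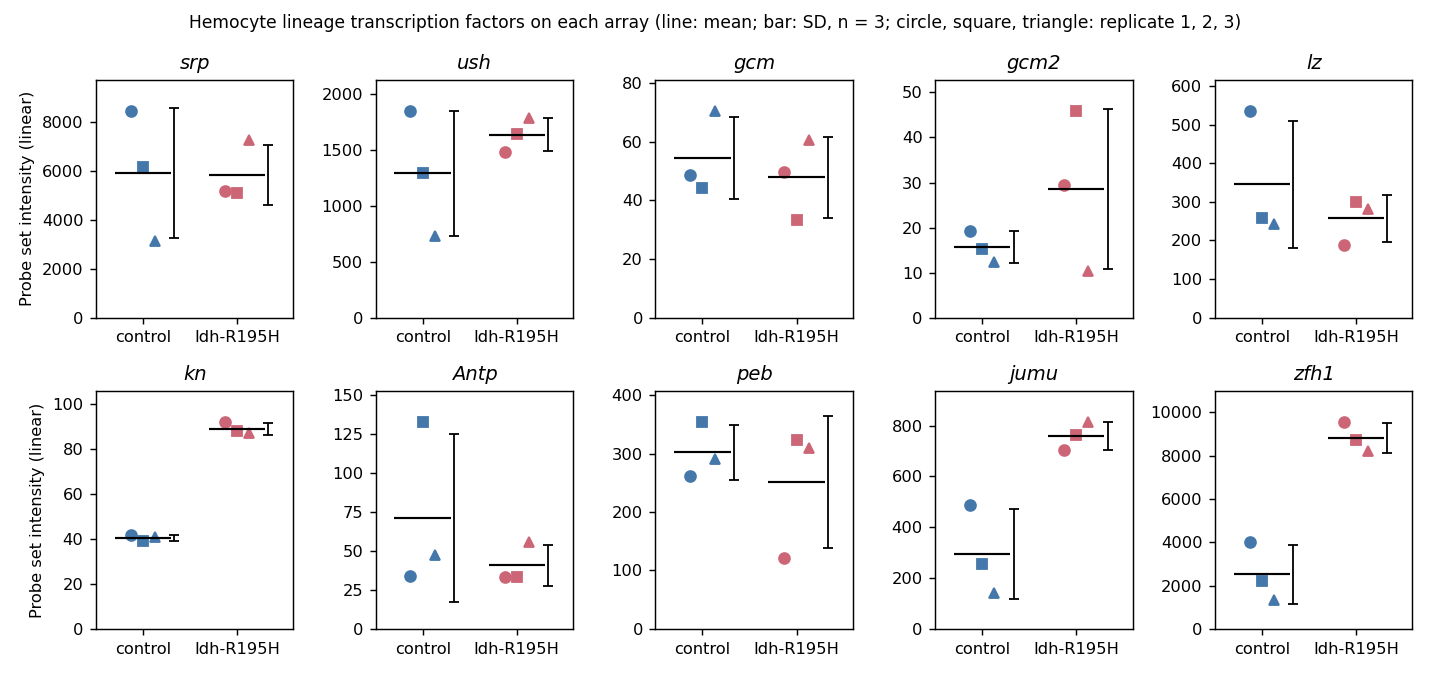
Probe set intensity (linear scale, each gene with its own axis from 0) of the 10 transcription factors on the 3 control and the 3 Idh-R195H arrays; points are arrays with shape by replicate number, horizontal lines are means and bars are SDs (n = 3). The arrays of the genotypes are apart for kn, jumu and zfh1 and overlap for the other 7 genes.

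Serpent, the GATA factor of all hemocytes, was bright in both genotypes and did not pass the test. Its probe set (srp, CG3992) read 8473, 6178 and 3147 on control replicates 1, 2 and 3, and 5193, 5090 and 7272 on the Idh-R195H arrays in the same order. The control arrays thus spanned the whole Idh-R195H range, with a 2.69-fold spread among them against 1.43-fold among the Idh-R195H arrays. Its log2 fold change was 0.07, with a 95% interval from -0.95 to 1.10 (adjusted p = 0.956 in limma). The direction was not stable: it was -0.33 without control replicate 3 and 0.39 without control replicate 1.

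The Serpent cofactor ush (CG2762) gave a similar picture. It read 1848, 1294 and 729.3 on the control arrays and 1482, 1640 and 1782 on the Idh-R195H arrays. Control replicate 1 was the highest of all 6 and control replicate 3 the lowest. For ush the log2 fold change was 0.44 with an interval from -0.49 to 1.36 (adjusted p = 0.594 in limma), and it was -0.18 against control replicate 1 alone.

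The 2 plasmatocyte factors of the embryo were dim. The probe set for gcm (CG12245) read 48.7, 44.4 and 70.6 on the control arrays and 49.8, 33.2 and 60.8 on the Idh-R195H arrays, below the median intensity of its array in every case (76.6 to 107.4 over the arrays). The probe set for gcm2 (CG3858) read 19.3, 15.3 and 12.2 on the control arrays and 29.4, 45.9 and 10.4 on the Idh-R195H arrays. The lowest and the highest gcm2 values both came from Idh-R195H arrays. Log2 fold changes were -0.20 for gcm, with an interval from -0.99 to 0.59, and 0.63 for gcm2, with an interval from -0.72 to 1.99, and both overlapped between genotypes (adjusted p = 0.815 and 0.598 in limma). Such intensities were not shown to exceed background, so these intervals describe the probe sets.

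The factor zfh1 (CG1322), a zinc finger and homeodomain protein of the ZEB type that favours plasmatocytes over crystal cells, had the largest difference of the 10. It read 4005, 2214 and 1320 on control replicates 1, 2 and 3, and 9547, 8709 and 8190 on the Idh-R195H arrays. All Idh-R195H arrays lay well above control replicate 1, and the control arrays spread 3.03-fold against 1.17-fold among the Idh-R195H arrays. This was a log2 fold change of 1.95 ± 0.43 (SE), with an interval from 0.91 to 3.00, and it missed the threshold (adjusted p = 0.0787 in limma). Over 16 alternative settings it stayed positive, from 1.14 with control replicate 1 as the only control to 2.92 with arrays scaled on the hybridisation controls, and it passed in 7 of them. Each of those 7 settings also called more probe sets than the 584 of the reported fit, from 870 to 7489. Without control replicate 1 zfh1 passed, at 2.36 (adjusted p = 0.0313 in limma).

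The forkhead factor Jumeau (jumu, CG4029), which acts on the number and differentiation of hemocytes, showed a similar pattern on these arrays. It read 487.4, 253.8 and 141.5 on the control arrays and 703.9, 762.0 and 813.4 on the Idh-R195H arrays. All Idh-R195H values were above control replicate 1, the highest control. The difference on the log2 scale was 1.54 ± 0.46 (SE), with an interval from 0.40 to 2.68 and an adjusted p of 0.148 in limma. It was 2.00 without control replicate 1, where it passed (adjusted p = 0.0448 in limma), and 0.64 with that array as the only control. A fit with 1 control array takes its spread from the Idh-R195H arrays alone and assumes that the control varies like them, so it is given as a size only. The difference remained positive in 16 of 16 alternatives and passed in 4. These were without control replicate 1, and with scaling on plasmatocyte markers, scaling on the hybridisation controls, and array weights. In that order they called 870, 1639, 6548 and 7489 of all 18769 probe sets, against 584 as reported.

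**Figure D2:**
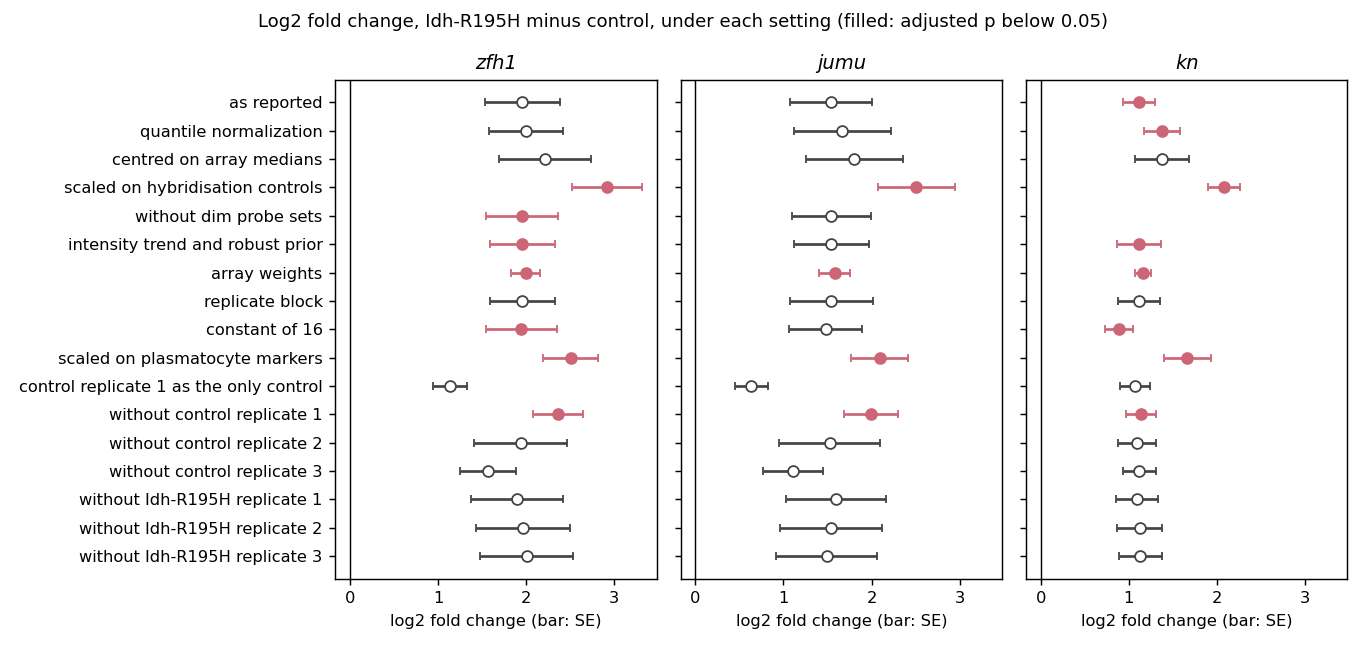
Log2 fold change (horizontal axis, Idh-R195H minus control, bars are limma standard errors) of zfh1, jumu and kn as reported and under each alternative setting; filled points have an adjusted p below 0.05. All points lie to the right of 0. Those of zfh1 and jumu lie furthest left with control replicate 1 as the only control, at 1.14 and 0.64.

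The crystal cell factors lz and peb had lower means in Idh-R195H hemocytes and overlapped. Lozenge (lz, CG1689) read 536.3, 257.9 and 242.7 on the control arrays and 188.6, 300.3 and 282.7 on the Idh-R195H arrays. Control replicate 1 stood above all others, and the other control arrays lay within the Idh-R195H range. Its log2 fold change was -0.35 with an interval from -1.32 to 0.61 (adjusted p = 0.698 in limma). It was 0.01 without control replicate 1 and -1.09 with that array as the only control, so the direction rested on 1 control array.

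Hindsight (peb, CG12212), a zinc finger protein that acts with Lozenge and Notch in crystal cells, read 261.7, 353.8 and 290.6 on the control arrays and 121.5, 322.8 and 310.1 on the Idh-R195H arrays. Idh-R195H replicate 1 was the low array, and the others fell inside the control range. For peb the log2 fold change was -0.38 with an interval from -1.44 to 0.69 (adjusted p = 0.707 in limma), and it was 0.08 without Idh-R195H replicate 1. That array was also the lowest of the 6 for lz. Crystal cell marker genes stood beside these values: of 4 measured, 3 were lower without overlap and klu was not. Over all genes, 31.6% did not overlap in either direction. Of the 4 markers fok was the single call, at -2.04 ± 0.30 on the log2 scale (SE; adjusted p = 0.0306 in limma). The main crystal cell prophenoloxidase gene, PPO2, gave 34030 ± 1033 in control against 19164 ± 4673 with Idh-R195H (SD, n = 3 per genotype), with no overlap, and did not pass (adjusted p = 0.145 in limma). The zinc finger gene klu went the other way, at 131.2 ± 33.0 in control against 196.2 ± 63.7 with Idh-R195H (SD, n = 3 per genotype), with overlap (adjusted p = 0.434 in limma). Summed intensity of the 4 crystal cell markers was lowest on Idh-R195H replicate 1, at 27046. It was 40007 and 42116 on the other Idh-R195H arrays and 63642 to 65536 in control. Most of the sum came from the prophenoloxidase genes PPO1 and PPO2, at 12498 and 13992 on Idh-R195H replicate 1. Any link between this sum and the values of lz and peb was not tested.

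Collier (kn, CG10197), the EBF-type factor of the niche and of induced lamellocytes, was the member that passed. It read 41.9, 39.1 and 40.8 on the control arrays and 92.2, 88.1 and 87.1 on the Idh-R195H arrays. The arrays within each genotype lay within 1.07-fold of each other, the narrowest spread of the 10 factors in either genotype. The kn probe set rose by a log2 fold change of 1.12 ± 0.18 (SE), with an interval from 0.67 to 1.56 (adjusted p = 0.0382 in limma). The signal was dim: control values lay below the median intensity of their arrays, at 80.5 to 107.4, and the Idh-R195H values a little above theirs, at 76.6 to 83.7. As for gcm, the control values were not shown to exceed background, so the size of the change in transcript is not known from this difference. The other probe set for kn read 30.6, 39.9 and 29.8 in control and 61.9, 50.0 and 64.2 in Idh-R195H hemocytes. It did not overlap either, and its log2 fold change of 0.80 ± 0.23 (SE) did not pass (adjusted p = 0.137 in limma).

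The size of the kn difference hardly moved when an array was left out, whereas the call was mostly lost. Its log2 fold change ran from 1.09 to 1.14 when each array was left out in turn. The adjusted p in limma was 0.0407 without control replicate 1, and the call was lost without any other array (0.13 for control replicate 2, 0.0708 for control replicate 3, and 0.175, 0.176 and 0.141 for the Idh-R195H replicates in their order). The call was lost as well after centring on array medians (log2 fold change 1.38, adjusted p = 0.076 in limma), and 7 of 15 alternatives kept it. Among those 7, quantile normalization called 493 of 18769 probe sets, scaling on the hybridisation controls 6548 and array weights 7489. Set against control replicate 1 alone, a comparison added after the data were seen, kn differed by a log2 fold change of 1.07. An exact two-sided permutation test over the arrays cannot go below p = 0.1 with 3 against 3, and kn, jumu and zfh1 each gave that smallest value. Any gene whose arrays do not overlap must give it, as 31.6% of all genes did, so it adds nothing to the lack of overlap.

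Antennapedia (Antp, CG1028), the Hox protein of the niche, was dim and varied among arrays. Its brightest probe set read 33.8, 132.9 and 47.2 on the control arrays and 33.3, 33.4 and 55.9 on the Idh-R195H arrays, so control replicate 2 alone stood apart. Its log2 fold change was -0.58 with an interval from -1.95 to 0.78 (adjusted p = 0.641 in limma), and -0.01 without control replicate 2. The 2 other probe sets gave -0.11 and -1.28, neither past the threshold (adjusted p = 0.902 and 0.388 in limma). The brightest and the dimmest of these probe sets have the suffix for probes that match several transcripts or like sequences.

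**Figure D3:**
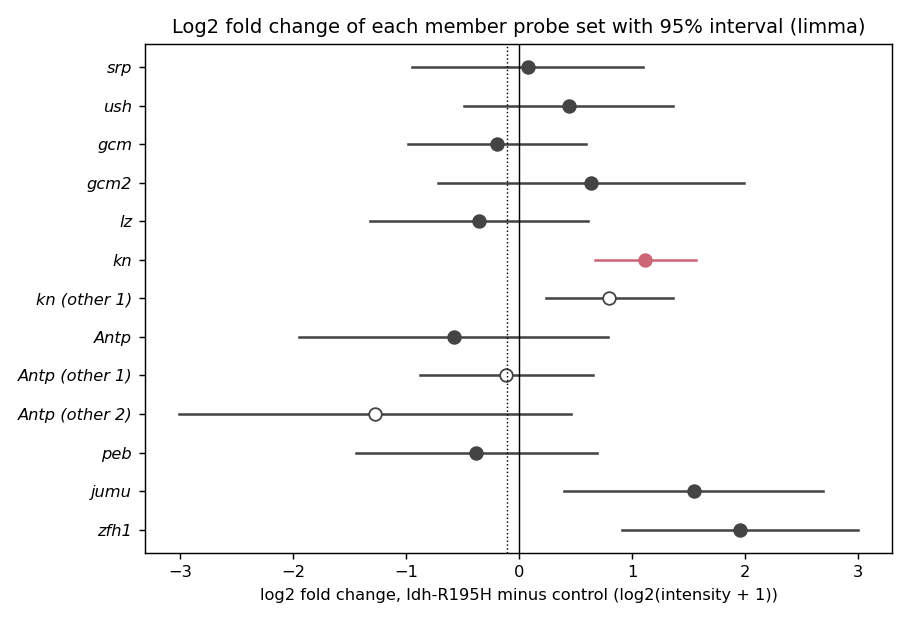
Log2 fold change (horizontal axis, Idh-R195H minus control) of the 13 probe sets of the 10 factors with 95% intervals from limma; filled points stand for the gene, open points are further probe sets of kn and Antp, and the coloured point has an adjusted p below 0.05. The dotted line is the median of all probe sets, -0.11. The intervals of zfh1, jumu and both kn probe sets lie above 0, and those of the other 9 probe sets include 0.

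No other niche or progenitor gene measured passed the test. Of the 7 in that list, 3 had a positive log2 fold change, and the median was -0.12. Those with the largest differences were Pvf1, a PDGF/VEGF-like ligand, at -1.63 ± 0.43, and Tep4, a thioester protein of progenitors, at 1.12 ± 0.34 (log2 fold change with SE; adjusted p = 0.118 and 0.15 in limma). At an unadjusted p below 0.05, 3 of the 7 were counted, where 21.7% of all genes were. Of 8 lamellocyte markers, from the other setting in which kn is known to act, 6 were called higher (ItgaPS4, ItgaPS5, PPO3, mdu, atilla and cher). The share of all genes called in either direction was 3.77%, and the median log2 fold change of the 8 markers was 3.97. Their summed intensity was between 7084 and 9867 in control and between 78518 and 88910 in Idh-R195H hemocytes, and its part in the values of kn, zfh1 and jumu was not tested.

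The control arrays differed among themselves in a way that several members shared. Control replicate 1 was the highest and control replicate 3 the lowest control array for 6 of the 10 factors (srp, ush, gcm2, lz, jumu and zfh1), a pattern found in 28.5% of all genes. The fold between those arrays was 3.45 for jumu, 3.03 for zfh1, 2.69 for srp, 2.53 for ush and 2.21 for lz. Kn lacked it, with 1.07-fold over the control arrays. Control replicate 1 had the lowest marker signal of salivary gland, fat body and midgut among the controls and the lowest Act5C ratio. Control replicate 3 had the highest Act5C ratio. Summed fat body and midgut signal was highest on control replicate 2, at 108887 and 58437. Neuron, glia and muscle markers went the other way and summed highest on control replicate 1, at 263.2, 1480 and 1415. Whether any of these differences bears on the factors was not tested. The mean log2 value of 10 plasmatocyte markers was 13.30, 12.91 and 12.59 on control replicates 1, 2 and 3 and between 12.30 and 12.53 on the Idh-R195H arrays. These markers did not move together: 4 were lower and 1 was higher with Idh-R195H without overlap, and none passed. Over all genes, 31.6% did not overlap in either direction and 14.9% were higher without overlap. The phagocytosis receptor NimC2 had a log2 fold change of -3.05 ± 0.65 and the scavenger receptor crq of -1.62 ± 0.46 (SE), against 1.22 ± 0.27 for Sr-CI. With every array centred on the mean of these markers, a setting chosen after the data were seen, log2 fold changes were 2.50 for zfh1, 2.09 for jumu and 1.67 for kn, all past the threshold (adjusted p = 0.0136, 0.0229 and 0.0245 in limma), while the median of all probe sets moved to 0.44. Those folds are relative to a reference that itself differed between the genotypes.

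**Figure D4:**
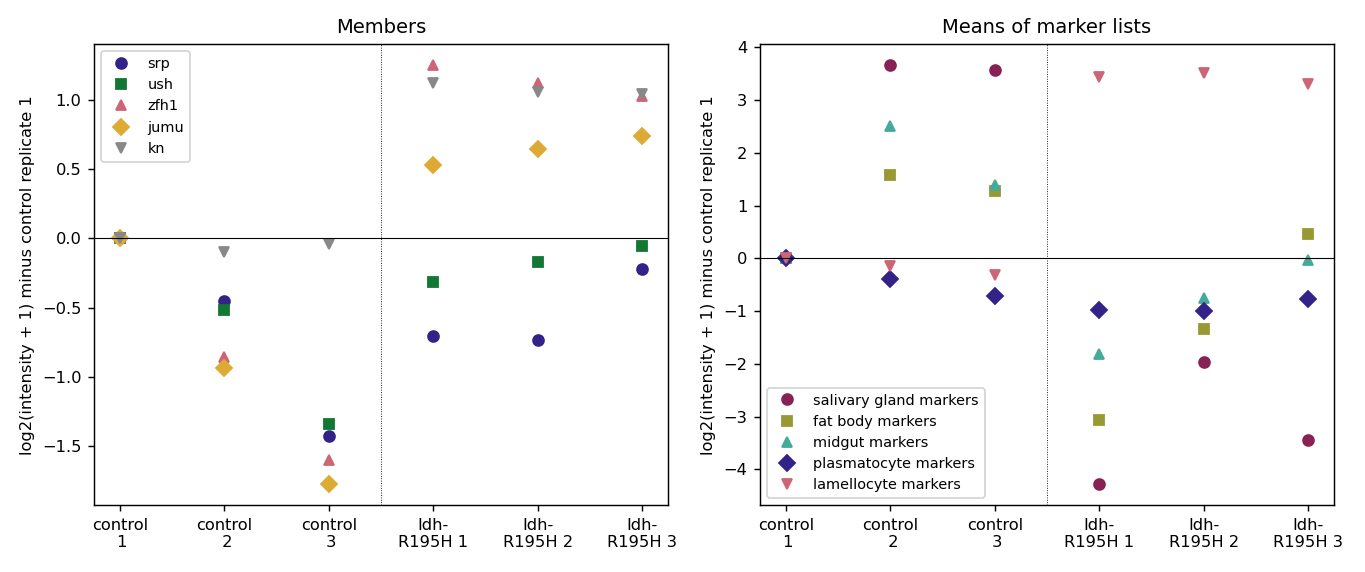
Log2(intensity + 1) on each array minus its value on control replicate 1, for 5 members (left) and for the mean of 5 marker lists (right). On control replicates 2 and 3, srp, ush, zfh1 and jumu lie below control replicate 1. Salivary gland, fat body and midgut markers lie above it there. Neuron, glia and muscle markers, which summed highest on control replicate 1 among the controls, are not drawn. The values of kn stay near 0 on the control arrays and near 1 on the Idh-R195H arrays.

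Cofactors and relatives of the factors gave no call. Of 4 partners measured, CtBP, a corepressor that binds FOG proteins, was at 1081 ± 249 in control against 1866 ± 239 with Idh-R195H (SD, n = 3 per genotype) without overlap (adjusted p = 0.169 in limma). The RUNX partners Bro and Bgb had log2 fold changes of -0.81 ± 0.64 and 0.24 ± 0.22 (SE). The median of the 4 partners was 0.15, and 1 of the 4 had an unadjusted p below 0.05, a share near the 21.7% of all genes.

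Among 10 relatives from the GATA, RUNX, Hox and forkhead families, 4 had a positive and 6 a negative log2 fold change, with a median of -0.35. CHES-1-like, a forkhead gene related to jumu, was at 512.1 ± 201 in control against 959.8 ± 46.8 with Idh-R195H (SD, n = 3 per genotype), without overlap. It differed by 0.99 ± 0.35 on the log2 scale (SE; adjusted p = 0.197 in limma). RunxA, a RUNX gene related to lz, was lower without overlap, at 74.7 ± 25.4 and 31.4 ± 12.1 (SD, n = 3 each). Its log2 fold change was -1.25 ± 0.40 (SE; adjusted p = 0.166 in limma). The GATA gene grn overlapped, at 51.2 ± 29.6 and 22.9 ± 18.3 (SD, n = 3 each), and the means of both genes were in the dim range. At an unadjusted p below 0.05, 2 of the 10 were counted, a share near the 21.7% of all genes.

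Other transcription regulators of hemocytes had a median log2 fold change of 0.41 over 13 measured genes, with 9 positive and none called. Those with the largest differences were ci, the Hedgehog pathway effector, at -1.22 ± 0.48, yki, the growth effector of the Hippo pathway, at 1.02 ± 0.27, and EcR, the ecdysone receptor, at -0.91 ± 0.35 (log2 fold change with SE). The adjusted p in limma was 0.231, 0.121 and 0.229. At an unadjusted p below 0.05, 5 of the 13 were counted, against 21.7% of all genes. Arrays did not overlap for 4 of the 13, all of them higher in Idh-R195H hemocytes, where 31.6% of all genes did not overlap and 14.9% were higher without overlap.

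**Figure D5:**
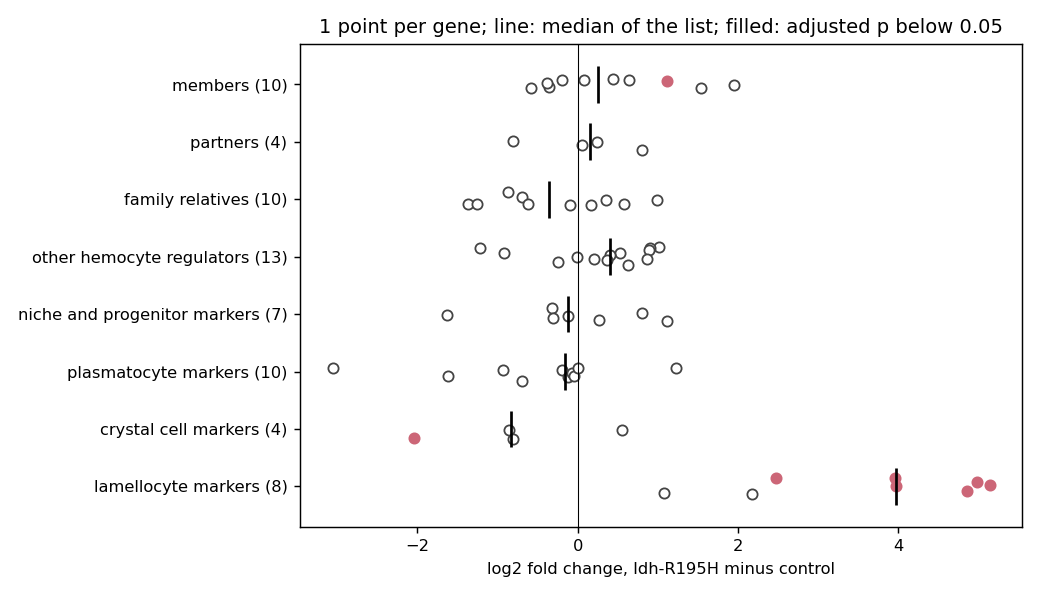
Log2 fold change (horizontal axis, Idh-R195H minus control) of the 10 members, of related regulators and of lineage markers, 1 point per measured gene with the number of genes in brackets; lines are medians and filled points have an adjusted p below 0.05. The members spread from -0.58 (Antp) to 1.95 (zfh1), whereas the lamellocyte markers lie between 1.07 and 5.14.

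Some of the factors are also known from neurons, muscle, heart and other tissues, so markers of those were examined beside them. The 4 neuron markers summed to between 192.4 and 263.2 in control and between 298.3 and 395.1 with Idh-R195H. Among them the synaptic gene nSyb and the sodium channel gene para were near the bottom of the range, at 11.7 ± 2.96 and 21.5 ± 20.9 in control against 8.18 ± 5.86 and 16.7 ± 15.9 with Idh-R195H (SD, n = 3 per genotype). Log2 fold changes were 0.83 ± 0.29 for brp and 0.79 ± 0.32 for elav (SE), and neither passed.

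The 3 glia markers summed to between 851.6 and 1480 in control and between 2663 and 2858 with Idh-R195H. That difference lay in moody, a receptor gene of the glial barrier, which rose from 266.9 ± 98.7 to 2166 ± 173 (SD, n = 3 per genotype; adjusted p = 0.0151 in limma). The defining glial gene repo was dim and nearly level, at 55.1 ± 9.78 and 56.1 ± 8.90, and nrv2 had a log2 fold change of -0.68 ± 0.30 (SE). The tracheal receptor gene btl was at 35.8 ± 23.3 in control and 367.7 ± 68.7 with Idh-R195H, without overlap (SD, n = 3 per genotype; adjusted p = 0.0535 in limma).

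Markers of muscle, heart and ring gland were lower or overlapping with Idh-R195H. The 4 muscle genes summed to between 974.6 and 1415 in control and between 365.6 and 707.4 with Idh-R195H, and the cardiac gene Hand was at 152.0 ± 45.5 against 65.7 ± 23.4 (SD, n = 3 per genotype). The ring gland gene sro, which acts in ecdysone synthesis, fell by 3.60 on the log2 scale (adjusted p = 0.0211 in limma). The other 2 ring gland genes measured, nvd and dib, were dim, overlapped and did not pass. They were at 31.5 ± 16.3 and 30.4 ± 22.3 in control against 15.3 ± 2.75 and 22.4 ± 13.9 with Idh-R195H (SD, n = 3 per genotype). The 3 imaginal disc markers summed to between 157.0 and 258.6 in control and between 178.2 and 216.7 with Idh-R195H. In limma the lists of neuron, muscle, imaginal disc, heart and tracheal markers held 0 calls. At an unadjusted p below 0.05 were 1, 1, 0, 1 and 1 of their 4, 4, 3, 1 and 1 measured genes, against 21.7% of all genes. What part such cells had in the values of the 10 factors was not tested.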

How the data were processed

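Per the labels, total RNA of pooled hemocytes was labelled with biotin and hybridised to 1-colour arrays, 3 per genotype. The deposited values are linear intensities, 1 per probe set and array. They share a trimmed mean of 500 on every array, so they had been scaled. Partek 6.0 is named in the submitters' processing notes; how probe sets were summarised, and the genome build, is not given in the sources used here. The labels call the samples biological replicates.

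Of 18952 probe sets, 183 array controls were left out. Intensities were transformed as log2(value + 1) and tested with limma 3.58.1 (R 4.3.3) by genotype, with empirical Bayes moderation, two-sided, adjusting by Benjamini-Hochberg over the 18769 others. Gene names came from the platform annotation; 13544 of 13647 single-gene probe sets matched a RefSeq gene table, and 0 symbols changed. The members and lists were chosen with earlier results of these data known. Every member is named; of the other lists of regulators all calls and the 3 largest differences. Of marker lists the calls and the 2 largest could be named, and some are given only as sums. Hml, Idh, Sr-CI, klu, PPO1, nSyb, para, repo, nrv2 and dib were added after their values were seen. On simulated arrays the test recovered 0%, 23.9% and 74.2% of log2 changes of 1, 2 and 3 among 18769 probe sets with 200 changed, with 4 false calls. The real arrays gave 584 calls, and the cut depends on how many probe sets differ, so these shares may not hold for them. Alternatives were other scalings, a filter on dim probe sets, other priors, weights, constants and thresholds, the replicate number as a block, and leaving out arrays. No sequence or coordinate of the members is reported.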

Additional observations from a re-analysis of the deposited data

How the results depend on the processing

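The number of called members, 1 as reported, ran from 0 to 3 when each array was left out in turn, and that of all probe sets, 584 as reported, from 11 to 870. The members and the probe sets called were 0 and 429 after centring on array medians, 4 and 6548 with scaling on the hybridisation controls, 2 and 1253 with an intensity trend and robust prior, 2 and 888 with a constant of 16, and 2 and 1250 at an adjusted p below 0.1. They were 4 (kn, jumu and zfh1 higher, Antp lower) and 7489 with array weights (an estimate that did not converge). Without dim probe sets, where kn, gcm, gcm2 and Antp were left out, they were 1 of 6 members (zfh1) and 1300 of 9385 probe sets. With settings chosen after seeing the data they were 3 and 1639 with scaling on plasmatocyte markers, and 0 and 346 against control replicate 1 alone, a fit that takes its spread from the Idh-R195H arrays. The second-brightest probe set of kn and Antp gave 0 members. Same-numbered samples were not correlated (deviations from group means at 0.03, 0.02 and -0.07 for the 3 numbers), and with the replicate number as a block 0 members and 0 probe sets were called. The medians of all probe sets moved from -0.11 to 0.02 with quantile normalization, 0.15 with median centring and 0.86 with the hybridisation controls. Of the calls 61.0% were higher as reported, 74.1% with median centring and 97.3% with the hybridisation controls. The mean log2 value of the hybridisation controls was between 10.98 and 11.12 on the control arrays. It was between 9.97 and 10.14 on the Idh-R195H arrays, and the cause of this difference was not tested.

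Directions turned for members that had not passed. With the hybridisation controls log2 fold changes were 0.77 for gcm, 0.61 for lz, 0.38 for Antp and 0.59 for peb. With plasmatocyte scaling they were 0.35 for gcm, 0.19 for lz and 0.17 for peb. For gcm it was 0.094 with quantile normalization and 0.065 with median centring, and for srp -0.11 with array weights. With control replicate 1 as the only control it was -0.55 for srp, -0.18 for ush and 0.22 for Antp. Leaving out each array gave -0.33 to 0.39 for srp, -0.39 to 0.041 for gcm, -0.56 to 0.011 for lz and -0.62 to 0.078 for peb. The cause of these differences was not tested. kn, zfh1 and jumu stayed positive in every alternative that held them.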
